A study of Homo sapiens with 6 samples.

Results

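The matrix proteoglycans described here are 10 genes, LUM, DCN, BGN, FMOD, ASPN, OGN, PRELP, VCAN, HSPG2 and ACAN, taken by gene name from the 58735 genes of the deposited count and FPKM tables. All 10 were found, and each name matched 1 gene. The study sequenced RNA of the human neuroblastoma line SY5Y, with 3 libraries from a derived line that overexpresses DLX5, a distal-less homeobox transcription factor, and 3 libraries from control cells. Both groups were grown in DMEM/F12 with serum and antibiotics, and no further allele or agent is named. The labels give neither the vector, the kind of control, whether a line is 1 clone, nor separate cultures. The p-values therefore describe how far the 6 libraries differ, and that spread may be technical. The question the comparison addresses here is how far the RNA of these matrix proteins differs between cells with and without raised DLX5.

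Proteoglycans are core proteins that carry glycosaminoglycan chains of chondroitin, dermatan, keratan or heparan sulfate. Chondroitin, dermatan and heparan sulfate, but not keratan sulfate, are built on serine residues from a common linker. The small leucine-rich members (LUM, DCN, BGN, FMOD, ASPN, OGN and PRELP) bind collagen and set the width and spacing of its fibrils, and some of them hold TGF-beta or signal through cell surface receptors. VCAN (versican) and ACAN (aggrecan) are large chondroitin sulfate proteoglycans that bind hyaluronan, and HSPG2 (perlecan) is the large heparan sulfate proteoglycan of basement membranes. In the stroma of neuroblastic tumours such matrix is known mainly from the Schwannian and fibroblastic cells that surround the neuroblasts.

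The libraries held between 14644077 and 16886026 counts, of which the 10 genes took 0.0345% to 0.0400% in the controls and 0.0775% to 0.0849% with DLX5. The targeted gene, DLX5, was measured at 1609 ± 59.1 CPM with overexpression against 12.8 ± 0.804 CPM without (SD, n = 3; CPM are counts scaled to library size by TMM), and each library matched its label. Of the 11 sympathetic neuroblastoma markers listed, such as GATA3 and DBH, 11 were at 1 CPM or more in the controls, which fits the labelled cell type, and 11 fell with DLX5. These 11 were called lower in the test given below, as were 28.8% of all genes tested. TH, named after its value was seen, passed the filter on low counts through its controls alone, so the count describes the tested genes. In bulk RNA, fewer cells of a type and less RNA per cell cannot be told apart.

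Of the 10 proteoglycan genes, 4 rose clearly with DLX5: PRELP, LUM, HSPG2 and BGN. DCN and VCAN passed the same test with smaller changes whose groups of libraries overlapped. ASPN, OGN, FMOD and ACAN were too low to be tested. The 6 tested genes were all called higher at an adjusted p under 0.05 (edgeR quasi-likelihood test, Benjamini-Hochberg adjustment over 17269 genes), where 29.8% of all genes tested were called higher and 58.6% in either direction. Of the 6, 3 rose and 0 fell by at least 2-fold, against 11.3% and 5.18% of all genes tested (16.4% in either direction), and in 4 the libraries of the groups did not overlap, against 62.5%. PRELP passed the filter on low counts through its DLX5 libraries, with 1 control at that level, so these counts describe the genes that could be tested and not the whole group.

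**Figure D1:**
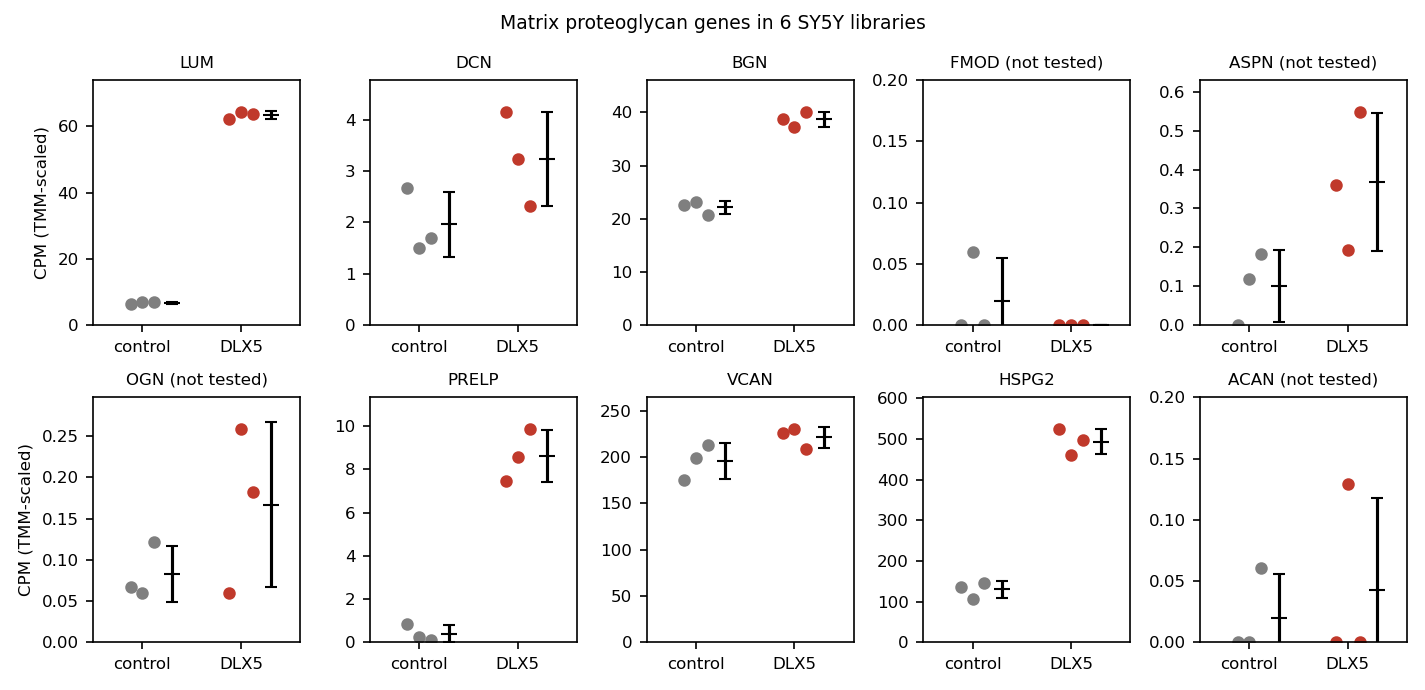
TMM-scaled CPM of the 10 genes in each library, 1 panel per gene with its own axis from 0. Grey points are the 3 controls, red points the 3 DLX5 libraries, and black bars the mean ± SD (bars reaching below 0 are not drawn there); LUM, BGN, PRELP and HSPG2 show groups that lie apart, while DCN and VCAN overlap.

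Lumican (LUM; ENSG00000139329, chromosome 12, 91102629 to 91111831, minus strand, GRCh38), a keratan sulfate proteoglycan that spaces collagen fibrils, held 62.1, 64.4 and 63.7 CPM in the 3 libraries with DLX5, where the controls held 6.50, 6.89 and 7.07 CPM. Every DLX5 library lay far above every control, and the spread within each group was small. That is a log2 fold change of 3.21 ± 0.09 (± SE) and a ratio of 9.28 (edgeR, adjusted p = 5.03e-21). Ordered from the largest rise down, LUM stood at place 407 of the 17269 genes tested.

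PRELP (ENSG00000188783, chromosome 1, 203475828 to 203491352, plus strand), a leucine-rich protein that anchors basement membranes to connective tissue and binds heparan sulfate, had 124, 133 and 162 counts in the DLX5 libraries and 13, 4 and 2 counts in the controls. The controls were near the floor and differed among themselves, with control replicate 1 holding most of their reads. In CPM this was 8.64 ± 1.20 against 0.411 ± 0.403 (SD, n = 3), a log2 fold change of 4.42 ± 0.31 (± SE; edgeR, adjusted p = 1.68e-12), the largest of the 6. From the summed counts the ratio was 21.8 (95% counting interval 13.8 to 36.6), an interval that covers counting error only. Without control replicate 1 the log2 fold change was 5.51. PRELP reached the filter on low counts through its DLX5 libraries, with 1 control at that level, so its fitted change is a description.

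Biglycan (BGN; ENSG00000182492, chromosome X, 153494939 to 153509554, plus strand), which carries chondroitin or dermatan sulfate and can signal through toll-like receptors, held 38.7, 37.3 and 40.1 CPM with DLX5 and 22.6, 23.1 and 20.8 CPM in control. The groups did not overlap, and the rise was modest. It came to 1.75-fold, a log2 fold change of 0.81 ± 0.08 (± SE; edgeR, adjusted p = 3.3e-09). The gene overlaps HAUS7 on the other strand, with 0 exonic bases in common.

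Decorin (DCN; ENSG00000011465, chromosome 12, 91140484 to 91183123, minus strand), the dermatan sulfate proteoglycan that decorates collagen fibrils and binds TGF-beta, had 69, 50 and 38 counts with DLX5 and 40, 25 and 28 in control. The groups overlapped, since 1 control exceeded 1 DLX5 library both in counts and in CPM. Its level was 3.23 ± 0.919 against 1.96 ± 0.631 CPM (SD, n = 3), a log2 fold change of 0.73 ± 0.26 (± SE; edgeR, adjusted p = 0.0195). The call was lost with DESeq2 (adjusted p = 0.0892), on FPKM with limma (adjusted p = 0.132 at a pseudocount of 1 and 0.105 at 0.1), and without DLX5 overexpression replicate 1, control replicate 2 or control replicate 3 (adjusted p = 0.154, 0.109 and 0.0792). The direction was the same in all 16 alternatives, with log2 fold changes of 0.51 to 1.01 in the fits to counts, while the call depended on the test and on single libraries.

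The remaining small leucine-rich members were at the limit of detection. Asporin (ASPN; ENSG00000106819, chromosome 9, 92456205 to 92482506, minus strand), a collagen-binding relative of decorin, had 6, 3 and 9 counts with DLX5 and 0, 2 and 3 in control. Osteoglycin (OGN; ENSG00000106809, chromosome 9, 92383967 to 92404696, minus strand), known from bone and cornea, had 1, 4 and 3 against 1, 1 and 2 counts. Fibromodulin (FMOD; ENSG00000122176, chromosome 1, 203340628 to 203351758, minus strand), which like lumican binds fibrillar collagen, had 1 count in 1 control library and 0 elsewhere. None of the 3 reached the filter of 0.617 CPM in 3 libraries. The ratio of summed scaled counts was 3.56 (95% counting interval 1.27 to 12.3) for ASPN and 1.98 (95% counting interval 0.530 to 8.98) for OGN, and that of OGN spans 1. In a fit with no filter on low counts the adjusted p was 0.122 for ASPN, 0.577 for OGN and 0.541 for FMOD (edgeR), so no difference passed the test at this depth, although the counting interval of ASPN lies above 1.

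Perlecan (HSPG2; ENSG00000142798, chromosome 1, 21822245 to 21937297, minus strand) was the most abundant of the 10 in counts with DLX5. Its level was 524, 461 and 497 CPM with DLX5 and 136, 108 and 147 CPM in control. The lowest DLX5 library was far above the highest control. The log2 fold change was 1.93 ± 0.08 (± SE), or 3.80-fold (edgeR, adjusted p = 3.97e-17). HSPG2 shares 2121 exonic bases with LDLRAD2 on the other strand, a gene with 66 counts over all libraries against 30234 for HSPG2.

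Versican (VCAN; ENSG00000038427, chromosome 5, 83471465 to 83582303, plus strand), the most abundant of the 10 in the controls, held 225, 229.9 and 208 CPM with DLX5 and 175, 199 and 213 CPM in control. The highest control lay above the lowest DLX5 library. The log2 fold change was 0.18 ± 0.07 (± SE; edgeR, adjusted p = 0.0263), and 72.9% of all genes tested had a larger one in size. The call was lost with upper-quartile factors (adjusted p = 0.0712), with library totals alone (0.170), on FPKM (0.0930 and 0.0905 at pseudocounts of 1 and 0.1), and without DLX5 overexpression replicate 1 (0.0834), DLX5 overexpression replicate 2 (0.0815) or control replicate 1 (0.214). VCAN-AS1, on the other strand, shares 453 exonic bases with it and had 20 counts in all, against 20156 for VCAN. Aggrecan (ACAN; ENSG00000157766, chromosome 15, 88803442 to 88875354, plus strand), the hyaluronan-binding proteoglycan of cartilage, had 2 counts in 1 DLX5 library and 1 count in 1 control, and no difference was detectable at this depth.

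**Figure D2:**
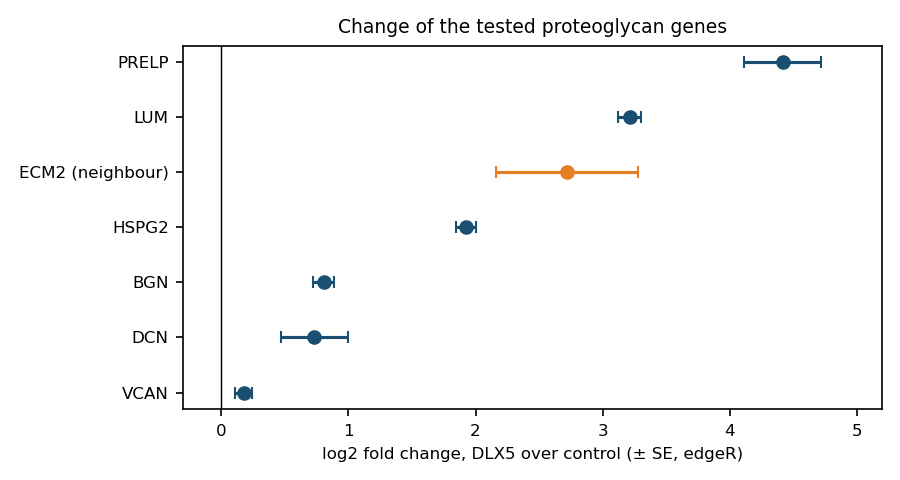
Log2 fold change of DLX5 over control (edgeR, ± SE) for the 6 tested proteoglycan genes in blue and for ECM2, a neighbour of ASPN that was tested through its DLX5 libraries alone, in orange. PRELP and LUM lie above 3, HSPG2 near 1.93, BGN and DCN below 1 and VCAN close to 0.

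Levels of different genes were compared per gene length, in the authors' FPKM. In the controls the order was VCAN at 13.1 ± 1.30, BGN at 8.96 ± 0.482, HSPG2 at 7.13 ± 1.10 and LUM at 2.25 ± 0.0964 FPKM (SD, n = 3), then DCN at 0.152 ± 0.0488 and the other 5 lower. With DLX5 the order was HSPG2 at 27.0 ± 1.66, LUM at 20.9 ± 0.432, BGN at 15.6 ± 0.519 and VCAN at 14.8 ± 0.796 FPKM, then PRELP at 1.49 ± 0.207 and DCN at 0.249 ± 0.0708. BGN and VCAN with DLX5 lay within each other's spread, and so did DCN and ASPN, the latter at 0.147 ± 0.0707 FPKM. VCAN, the highest in control, was thus the lowest of the 4 abundant genes by its mean with DLX5, and HSPG2 the highest.

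The summed FPKM of the 10 genes was 80.3 ± 1.22 with DLX5 and 31.7 ± 1.40 in control (SD, n = 3). LUM made up 7.09% ± 0.198 of the sum in control and 26.0% ± 0.931 with DLX5, and HSPG2 22.4% ± 2.94 and 33.7% ± 1.56. VCAN went from 41.2% ± 2.78 to 18.4% ± 1.10 of the sum and BGN from 28.3% ± 2.68 to 19.5% ± 0.564, although neither had a lower level. DCN was 0.480% ± 0.167 and 0.310% ± 0.0853. The length in the tables is the union of all annotated exons of a gene, 12847 bases for DCN against 7156 bases in its GENCODE 29 principal transcript. On that shorter length the scaled level of DCN was 0.451 CPM per kb with DLX5 and 0.274 in control, still far below LUM at 21.1 and 2.27. HSPG2 came to 9.08 CPM per kb in control on its principal transcript and BGN to 9.22, so on that length the gap between these neighbours in control was smaller and their order the same. No such transcript was marked for VCAN, and its isoforms are not separated in these tables.

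**Figure D3:**
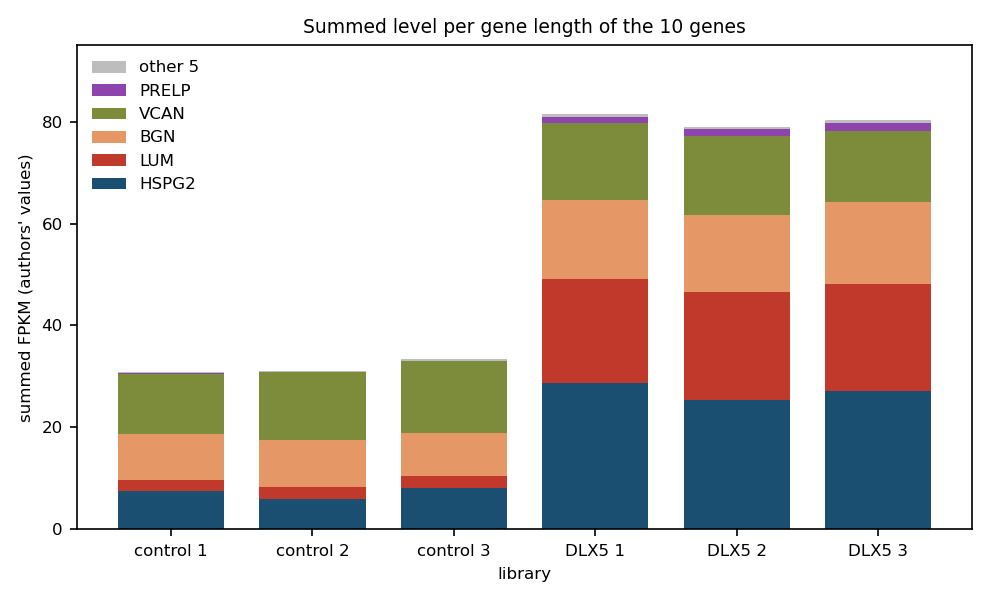
Summed FPKM (authors' values) of the 10 genes in each of the 6 libraries, stacked by gene; the 5 least abundant genes are drawn together in grey. The bars of the 3 DLX5 libraries reach 79.1 to 81.5 and those of the controls 30.8 to 33.3, with the red (LUM) and dark blue (HSPG2) parts much taller with DLX5 and the green part (VCAN) similar.

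Ratios of 2 members within a library were compared for 4 pairs. The FPKM of LUM over that of DCN, its neighbour on chromosome 12, was 88.9 ± 27.0 with DLX5 and 15.9 ± 4.90 in control (SD, n = 3), where DCN had between 25 and 69 counts a library. LUM over BGN was 1.34 ± 0.0620 and 0.252 ± 0.0225. HSPG2 over VCAN was 1.83 ± 0.168 and 0.548 ± 0.0963, and BGN over VCAN 1.06 ± 0.0933 and 0.690 ± 0.0963. In each of the 4 pairs the 3 DLX5 values lay above the 3 controls. An exact permutation test over the libraries, two-sided, gave p = 0.1 for each, also after adjustment over the 4 pairs, and 0.1 is the smallest p that 3 against 3 libraries allow.

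Of the small leucine-rich genes, 6 of the 7 lie in 3 gene clusters. On chromosome 12 (90963679 to 91183123, 219.4 kb, all on the minus strand) the order is EPYC, KERA, LUM, DCN. EPYC (epiphycan, of cartilage) and KERA (keratocan, of cornea) had 0 counts in all 6 libraries, LUM rose and DCN stayed low, and the counting intervals of their ratios did not overlap (8.28 to 10.4 for LUM and 1.28 to 2.18 for DCN). On chromosome 9 (92383967 to 92536655) the order is OGN, OMD, ASPN, ECM2. ECM2, a matrix protein related to decorin, had 13, 14 and 15 counts with DLX5 and 1, 1 and 4 in control, a ratio of 6.93 (95% counting interval 2.93 to 19.9). It passed the filter through its DLX5 libraries alone, so its fitted change of 2.72 ± 0.56 on the log2 scale (± SE), which was 3.62 without control replicate 3, is a description. OMD (osteomodulin, of bone) had 7, 15 and 5 counts with DLX5 and 0 in every control. With the controls set to a floor of 3 counts in sum its ratio was 8.91. From the counts themselves the lower 95% counting limit of the ratio was 6.76. OMD did not reach the filter, and without a filter its adjusted p was 1.03e-05 (edgeR). The unfiltered fit gave smaller adjusted p-values for every tested member, for LUM 2.40e-221 against 5.03e-21 (edgeR). The value of OMD is therefore not comparable with those of the main fit. The counting intervals of OGN, ASPN and ECM2 overlapped, so no difference among them was detectable at this depth. All 4 genes lie within CENPP on the other strand, which had 853 counts over all libraries and shares 0 exonic bases with them, and the part of CENPP reads in these low counts was not tested. On chromosome 1 (203340628 to 203508864) FMOD was not detected with DLX5, PRELP rose, and OPTC (opticin, of the eye), the gene next to PRELP on the same strand, had 5, 2 and 1 against 0, 1 and 1 counts. The counting intervals of FMOD (up to 38.6) and OPTC (0.790 to 38.3) cover the ratio of PRELP, so these genes could not be told from it. BGN, the remaining member of the family, stands outside these clusters.

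Promoter sequences (250 bases before and 50 after the annotated start) were taken from RefSeq on GRCh38.p14 and matched 8 of the 10 genes. LUM and DCN had no entry. The stretches before the start are shown for 3 genes that rose, because they differ widely in base composition. They are written 5′ to 3′ on the gene's strand with CG pairs in capitals, for PRELP at chr1:203475556-203475805, plus strand, for HSPG2 at chr1:21937311-21937560, minus strand, and for BGN at chrX:153494730-153494938, plus strand, the last without bases that lie in an annotated exon.
PRELP: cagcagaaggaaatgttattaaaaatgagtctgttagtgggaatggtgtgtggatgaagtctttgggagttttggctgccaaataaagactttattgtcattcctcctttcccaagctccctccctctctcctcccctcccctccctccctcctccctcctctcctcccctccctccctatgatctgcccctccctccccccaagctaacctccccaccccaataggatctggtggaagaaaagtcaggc
HSPG2: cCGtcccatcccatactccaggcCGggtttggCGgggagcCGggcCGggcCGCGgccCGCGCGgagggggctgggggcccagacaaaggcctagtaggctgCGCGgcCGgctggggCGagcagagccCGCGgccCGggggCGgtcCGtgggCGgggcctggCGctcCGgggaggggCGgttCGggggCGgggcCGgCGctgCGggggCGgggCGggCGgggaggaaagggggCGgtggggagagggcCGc
BGN: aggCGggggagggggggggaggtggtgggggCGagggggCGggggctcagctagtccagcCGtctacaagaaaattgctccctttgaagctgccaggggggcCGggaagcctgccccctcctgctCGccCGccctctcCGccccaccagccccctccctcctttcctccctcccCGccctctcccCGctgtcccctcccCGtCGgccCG
The PRELP stretch holds 0 CG pairs in 250 bases, the HSPG2 stretch 33 CG pairs in 250 bases, and the BGN stretch 13 in 209. Over the full 300 bases, HSPG2 had 44 CG pairs, more than 95.8% of the 35116 RefSeq promoters, BGN 19, VCAN 15 and PRELP 1, with a median of 14 over all promoters. The promoters of these genes thus ranged from poor to rich in CG pairs. The motif TAATTA, a core sequence bound by homeodomains of the DLX kind and the same on both strands, was found in 0 of the 8 matched genes' promoters and in 4.84% of all promoters. Those letters are simply not in these windows, which says nothing of DLX5 binding there or elsewhere.

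Of 25 other matrix proteoglycans and link proteins, 16 could be tested. Of these, 9 rose, 4 fell and 3 did not pass (29.8% of all genes tested were called higher and 28.8% lower). Their median log2 fold change was 0.59, against -0.00 for all genes tested. Of the 9 that rose, 4 (ECM2 and, named after their values were seen, ESM1, SPOCK3 and CHAD) reached the filter only through their DLX5 libraries, and COL15A1, 1 of the 4 that fell, only through its controls, so the count and the median describe the tested genes and support nothing. With a filter of 1 CPM in 3 libraries 7 of 14 rose and 4 fell. That filter removed ECM2 and SPOCK3. It did not remove the selection, since ESM1 and CHAD still passed through their DLX5 libraries alone and COL15A1 through its controls alone. SPOCK1 (testican), a secreted heparan and chondroitin sulfate proteoglycan, rose by 2.17 ± 0.07, from 23.3 ± 0.582 to 105 ± 0.575 CPM. HAPLN3, a link protein that fastens proteoglycans to hyaluronan, rose by 1.57 ± 0.09, and agrin (AGRN), a heparan sulfate proteoglycan of basement membranes and synapses, rose by 0.94 ± 0.07 (log2 fold change ± SE). Neurocan (NCAN), the hyaluronan-binding proteoglycan of neural tissue and a relative of VCAN, fell by 1.34 ± 0.09, from 43.9 ± 4.01 to 17.3 ± 1.23 CPM.

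Enzymes that start the chains and extend chondroitin or dermatan sulfate rose in 14 of 20 tested genes and fell in 1, B3GALT6, with a median log2 fold change of 0.38. Of all genes tested, 29.8% were called higher and 28.8% lower. The sulfotransferase CHST15 rose by 2.54 ± 0.17, the chain polymerising factor CHPF rose by 0.83 ± 0.06, the xylosyltransferase XYLT2, which places the first sugar on the core protein, rose by 0.84 ± 0.07, and DSE, the epimerase that turns chondroitin into dermatan sulfate, rose by 0.99 ± 0.09 (log2 fold change ± SE). CHPF was the most abundant of these 4, at 339 ± 21.1 against 191 ± 13.4 CPM. Of the 20, 3 rose and 0 fell by at least 2-fold, against 11.3% and 5.18% of all genes tested. CSGALNACT1, 1 of these 3 and named after its value was seen, passed the filter through its DLX5 libraries alone, so these counts describe the tested genes. The fall of B3GALT6, which adds a galactose of the linker and is named after its value was seen, lost its call on FPKM and without DLX5 overexpression replicate 2 or control replicate 1, with adjusted p up to 0.148.

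Heparan sulfate enzymes, which would modify HSPG2, were higher in 4 of 15 tested genes and lower in 4, with 7 not passing and a median of 0.03. These shares are near those of all genes tested, 29.8% higher and 28.8% lower. EXT1, a subunit of the polymerase, rose by 2.06 ± 0.07 and HS6ST3 rose by 1.89 ± 0.16, while HS6ST1, the related and more abundant 6-O-sulfotransferase, fell by 0.96 ± 0.07 and the extracellular sulfatase SULF2 fell by 1.22 ± 0.07 (log2 fold change ± SE). EXT1 went from 35.9 ± 2.44 to 149.6 ± 1.39 CPM and SULF2 from 65.8 ± 1.88 to 28.2 ± 1.12 CPM. Of 6 tested genes for keratan sulfate, the chain type of lumican, 2 rose and 1 fell (median 0.36). The galactosyltransferase B4GALT1, which serves many glycans, rose by 1.39 ± 0.06, CHST6, known as the corneal keratan sulfotransferase, rose by 2.89 ± 0.27 from 0.706 ± 0.292 CPM, and its relative CHST1 fell by 1.32 ± 0.29. CHST6 needed its DLX5 libraries to pass the filter.

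Of 12 tested genes that supply sugars and sulfate or make hyaluronan, 7 rose and 2 fell (median 0.31), where 29.8% of all genes tested were called higher and 28.8% lower. PAPSS2, which makes the sulfate donor, rose by 1.69 ± 0.08, UGP2 rose by 1.04 ± 0.07, UXS1 rose by 0.80 ± 0.08 and UGDH rose by 0.65 ± 0.08 (log2 fold change ± SE). UGP2, UGDH and UXS1 act in sequence to make UDP-xylose, the donor of the first sugar of chondroitin, dermatan and heparan sulfate chains. The members that fell, named after their values were seen, were the sulfate transporter SLC26A2, at -0.22 ± 0.08, and the hyaluronan synthase HAS2, at -0.41 ± 0.13. The call of SLC26A2 was lost with DESeq2, on FPKM and without any 1 of 4 libraries (DLX5 overexpression replicates 1 and 3, control replicates 2 and 3), with adjusted p up to 0.109.

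Enzymes that cut proteoglycans changed in both directions, with 9 of 17 tested higher, 7 lower and 1 not passing (median 0.15). Of all genes tested, 29.8% were called higher and 28.8% lower. The protease ADAMTS15 rose by 5.56 ± 0.11, from 2.31 ± 0.377 to 109.6 ± 4.10 CPM. HTRA1, a secreted serine protease, rose by 2.16 ± 0.07, CEMIP, which takes part in hyaluronan breakdown, rose by 2.13 ± 0.07, and BMP1, which trims the precursor of biglycan, rose by 1.39 ± 0.07. The other listed ADAMTS proteases, named after their values were seen, went both ways. ADAMTS9 fell by 0.67 ± 0.06, ADAMTS4 fell by 1.27 ± 0.09, ADAMTS5 fell by 1.24 ± 0.13 and ADAMTS20 fell by 1.49 ± 0.27 (log2 fold change ± SE). ADAMTS8 was higher, with 23, 27 and 18 counts with DLX5 and 1, 0 and 2 in control, a ratio of 22.4 (95% counting interval 7.36 to 111). ADAMTS8 and HPSE passed the filter through their DLX5 libraries alone, and HPSE2 through its controls alone. ADAMTS1 passed at 0.15 ± 0.06 (adjusted p = 0.0444), and its call was lost in 11 of 16 alternatives, with adjusted p up to 0.269. Inside the lysosome, 11 of 12 enzymes of glycosaminoglycan breakdown rose and 1 fell (median 0.68). GLB1, a galactosidase, rose by 0.71 ± 0.07 and SGSH, a sulfatase of heparan sulfate, rose by 0.68 ± 0.07 (log2 fold change ± SE), while the iduronate sulfatase IDS, named after its value was seen, fell by 0.50 ± 0.06.

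Receptors and matrix partners of the proteoglycans were higher in 29 of 33 tested genes and lower in 4, with a median of 0.81. Of all genes tested, 29.8% were called higher and 28.8% lower. COL14A1, 1 of the 29 and named after its value was seen, passed the filter through its DLX5 libraries alone, so the count describes the tested genes. COL1A1, the fibrillar collagen that decorin and lumican bind, rose by 3.93 ± 0.07, and COL3A1 rose by 2.01 ± 0.06. NID2, a basement membrane linker that binds perlecan, rose by 4.25 ± 0.08, from 7.94 ± 0.638 to 151 ± 1.64 CPM, and CD44, the hyaluronan receptor, rose by 2.30 ± 0.07 (log2 fold change ± SE). The members that fell, named after their values were seen, were ITGA2, FBLN2, TNR and TGFB3, with log2 fold changes of -0.82 ± 0.08, -0.99 ± 0.08, -0.61 ± 0.14 and -0.94 ± 0.24. TGFB1 and TGFB2, growth factors that decorin and its relatives bind, also named after their values were seen, rose by 1.66 ± 0.07 and 1.57 ± 0.08.

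**Figure D4:**
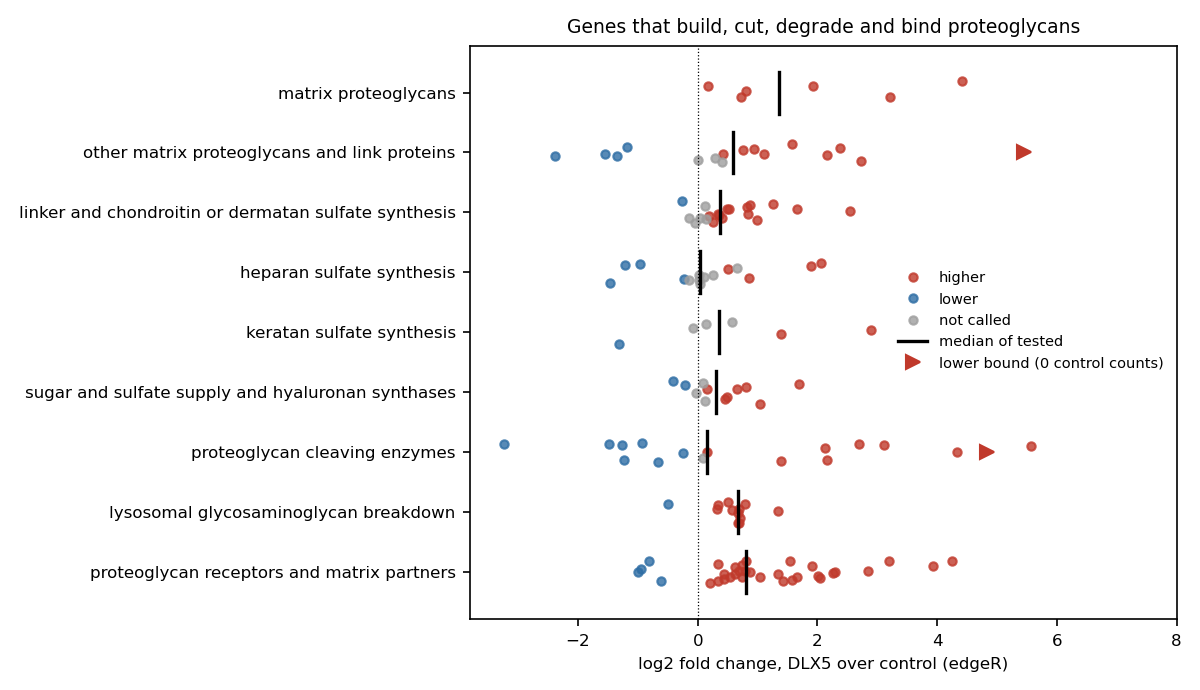
Log2 fold change of DLX5 over control (edgeR) for each tested gene of 9 lists, 1 row per list; red points were called higher, blue lower and grey neither (points are spread vertically to be seen), triangles are lower bounds for genes with 0 control counts, and black bars are medians of the tested genes. The rows for receptors and partners and for lysosomal enzymes lie mostly to the right of 0, and those for heparan sulfate synthesis and for cleaving enzymes extend to both sides.

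Markers of other cell types that make these proteins were measured beside them. Of 10 fibroblast markers 7 could be tested and 6 rose. Beside this and the other marker lists, 29.8% of all genes tested were called higher and 28.8% lower. The sum over the list was 1430 to 1482 CPM in control and 6508 to 6768 CPM with DLX5, most of it from COL1A1 and COL3A1, which also stand in the partner list. PDGFRA was at 32.1 ± 1.96 against 35.6 ± 0.941 CPM (adjusted p = 0.105, edgeR), TCF21 had 0 counts in all libraries, and DPT and PI16 had 8 and 6 counts over the DLX5 libraries and 10 and 2 over the controls. Of 12 cartilage and bone markers 6 could be tested. MATN3 rose by 1.48 ± 0.11, SOX9 rose by 0.29 ± 0.10 and COL11A2 fell by 0.55 ± 0.20, the latter pair with calls that were lost in 4 and 6 of 16 alternatives, and the list summed to 35.1 to 38.3 CPM in control and 56.4 to 57.8 CPM with DLX5. IBSP and DMP1 were at 0 and COL2A1, the defining cartilage collagen, at 0.430 ± 0.201 CPM with DLX5. The endothelial, mural and blood list summed to 4164 to 4706 CPM in control and 771 to 862 CPM with DLX5. Of its 12 markers 7 could be tested, and 1 was called higher, 2 lower and 4 neither. Nearly all of the sum was RGS5, which fell by 2.48 ± 0.07. CNN1 fell by 1.81 ± 0.20, PECAM1 had 41 counts with DLX5 against 2 in control, a ratio of 20.3 (95% counting interval 5.27 to 173), and CD3E was at 0. PECAM1 passed the filter through its DLX5 libraries alone. The other endothelial markers had 35 against 23 counts (VWF), 43 against 24 (TIE1), 21 against 15 (KDR) and 1 against 0 (CDH5), and the mural marker MYH11 was at 0.10 ± 0.32 (adjusted p = 0.807, edgeR). Of the 8 Schwann and glial markers 6 could be tested. Among them MBP (2.68 ± 0.22) and ERBB3 (2.32 ± 0.24) were called higher and PMP22 (-0.98 ± 0.08) and S100B (-2.75 ± 0.40) lower (log2 fold change ± SE), with sums of 42.8 to 49.0 CPM in control and 34.0 to 36.7 CPM with DLX5. S100B passed the filter through its controls alone, and CDH19 was at 0. The part of other cell types in the change of the proteoglycan genes was not tested.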

How the data were processed

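Per the labels' protocols, RNA was isolated by Trizol and libraries were built with the NEBNext Ultra RNA kit for Illumina. The submitters' processing notes name HISAT2 2.0.5, featureCounts 1.5.0-p3 and hg19. All 58735 genes of the deposited count table nevertheless have identifiers, starts and ends of GENCODE 29, so coordinates are given as GRCh38. The sources used here do not give the strand setting of the counting. The authors' deposited FPKM are the counts over gene length and a total that is 0.968 to 1.03 times the counts' sum, so they are no independent measurement.

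No library was left out. Counts were tested with edgeR 4.0.16 in R 4.3.3 (filterByExpr, TMM, quasi-likelihood test, two-sided, no covariate, Benjamini-Hochberg over 17269 genes, threshold 0.05). CPM are TMM-scaled, and the SE is the log2 fold change over the square root of F. In simulated counts with 16872 genes tested for this comparison, 96% of 50 genes changed by 2-fold were recovered. At 1.5-fold 72% were recovered and at 1.25-fold 36%. The changed genes were drawn above a minimum of control counts, so these shares do not cover low genes such as PRELP. With few counts the SE can be smaller than the counting error. Alternatives used limma 3.58.1 and DESeq2 1.42.0 and are given below, and library totals without factors and the principal transcript's length were added after the data were seen.

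The genes and the 14 lists were chosen with earlier results of these data known. Named were DLX5, the 10 genes, their cluster neighbours, up to 4 genes with the smallest adjusted p per pathway list, and the called markers of lists with 5 or fewer; others are said to be named after their values were seen. Some genes that this rule names are not reported here. TMEM2 is listed as CEMIP2 in the tables. Figures were drawn with matplotlib 3.10.9.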

Additional observations from a re-analysis of the deposited data

How the results depend on the processing

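The calls of LUM, PRELP, HSPG2 and BGN held in all 16 alternatives run (RLE and upper-quartile factors, library totals, DESeq2, limma-voom, no filter, a filter of 1 CPM in 3 libraries, the replicate block, limma on FPKM with pseudocounts of 1 and 0.1, and each library left out), and no tested member changed direction. DCN lost its call in 6 and VCAN in 7 of them. The number of members called ran from 4 to 6 when a library was left out, and was 4 at an adjusted p under 0.01. Over all genes 9277 to 9841 were called with a library left out, against 10121. With a library left out the called genes per list numbered 11 to 12 for other matrix proteoglycans, 14 to 15 for linker and chondroitin enzymes, 8 to 8 for heparan sulfate, 3 to 4 for keratan sulfate, 7 to 9 for sugar supply, 15 to 16 for cleaving enzymes, 12 to 12 for lysosomal enzymes and 32 to 33 for receptors and partners. The summed FPKM ran from 30.9 to 32.2 in control and 79.7 to 80.9 with DLX5. A minimum change of 2-fold moved counts by over 1.5 times, to 2839 of all genes, 3 members, 3 linker and chondroitin enzymes, 4 heparan sulfate enzymes, 2 sugar supply genes, 1 lysosomal enzyme and 15 receptors and partners. No scaling moved the median log2 fold change of all genes by over 0.1; the largest shift was to -0.07, with library totals.

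The replicate number as a block gave 10224 called genes and the same number of members, 6. Same-numbered libraries of the groups had deviations that correlated at 0.00688, 0.0944 and -0.0399, so the numbers were not taken as pairs, and not every library correlated best with its own number. Genes with few counts are limited by depth: 3 counts correspond to 0.18 to 0.201 CPM in a library.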

Other observations

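Some genes around the proteoglycans, chosen after their values were seen, went from no counts to clear levels or changed against a close relative. Heparanase (HPSE), which cuts heparan sulfate, had 37, 26 and 23 counts in the DLX5 libraries and 0 in every control. Its ratio was 28.4 when the controls are set to 3 counts in sum, and the lower 95% counting limit was 22.6. Its relative HPSE2, known to bind heparan sulfate without cutting it, had 4, 0 and 1 counts with DLX5 and 12, 19 and 19 in control, a ratio of 0.0989 (95% counting interval 0.0308 to 0.247). Each passed the filter on low counts through 1 group alone. ESM1 (endocan), a small dermatan sulfate proteoglycan, had 32, 58 and 42 counts with DLX5 and 0 in every control. Its ratio was 43.5 by the same floor, and the lower 95% counting limit was 34.9.

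The testicans also differed, with SPOCK1 at 105 ± 0.575 CPM with DLX5 against 23.3 ± 0.582 in control and SPOCK2 at 3.15 ± 0.170 against 9.23 ± 1.04 CPM (SD, n = 3). TLR4, a receptor through which biglycan can signal, held 19.6, 21.5 and 16.7 CPM with DLX5 and 1.88, 2.34 and 2.07 CPM in control, and the groups did not overlap. CEMIP2, known for hyaluronan breakdown at the cell surface, held 6.21 ± 0.368 against 0.706 ± 0.119 CPM, a log2 fold change of 3.12 ± 0.24 (± SE; edgeR, adjusted p = 1.48e-11).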
